A study of Homo sapiens with 8 samples.

Results

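Nuclear pore and nuclear transport genes were followed in HCT116, an established line from a human colorectal carcinoma, whose NUDT21 protein bears a degradation tag. The 53 genes were listed by symbol for their role, with earlier results of these data known. They comprise 29 nucleoporins and 24 transport receptors and export factors, of 78932 gene identifiers counted in all. RNA 3′ ends were sequenced from 4 libraries of tagged cells given DMSO with JTE-607 and from 4 libraries of the same cells given dTAGV1 with JTE-607. NUDT21 encodes the RNA-binding subunit of cleavage factor Im (CFIm), dTAGV1 directs the tagged protein to degradation, and JTE-607 inhibits CPSF73, the nuclease that cuts pre-mRNA at poly(A) sites. Both groups carried the tag and received JTE-607, so each difference is that of dTAGV1 on top of inhibited cleavage. Doses, times and whether the tagged line is 1 clone are not given in the sources used here.

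Nuclear pores are ring-shaped assemblies through which all traffic between nucleus and cytoplasm passes. A scaffold of Y-shaped and inner ring complexes is anchored by transmembrane nucleoporins. It carries a channel lined with phenylalanine-glycine repeats, filaments on the cytoplasmic side and a basket on the nuclear side. Importins and transportins carry cargo inward and exportins carry it outward under the control of the GTPase Ran, whereas bulk mRNA leaves through the NXF1-NXT1 heterodimer. TNPO3 imports CPSF6, the partner of NUDT21 in CFIm, which links these receptors to the factor that was targeted.

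The libraries held 3447842 to 4291256 reads counted to genes on the sense strand. Levels are counts per 1000000 (CPM) after TMM scaling. They are relative to the other counted genes of a library, and amounts of RNA per cell were not measured. NUDT21 gave 28.4, 33.5, 34.95 and 31.9 CPM with DMSO and 9.64, 8.76, 4.42 and 10.2 CPM with dTAGV1. Its RNA was thus lower in every library labelled dTAGV1, although dTAGV1 acts on the protein, which was not measured. CPSF6 RNA was also lower with dTAGV1, at a log2 fold change of -0.63 (dTAGV1 over DMSO; edgeR's quasi-likelihood test, p adjusted by Benjamini-Hochberg = 2.74e-07). The epithelial markers EPCAM, KRT8, KRT18, KRT19 and CDH1 were counted in every library. CLDN7, also on the epithelial list and in its summed level, had 4 to 16 counts per library and was too low to be tested. Of 6 fibroblast markers, COL3A1, LUM and DCN had no count in any library, while COL1A1 had 37 to 73 counts in each, at 17.3 ± 2.03 CPM with DMSO and 13.8 ± 1.77 CPM with dTAGV1 (SD, n = 4 each). The 5 immune markers summed to at most 1.37 CPM. The 3 endothelial markers summed to 1.64 to 2.93 CPM with DMSO and 0.295 to 0.8503 CPM with dTAGV1, nearly all VWF, at 1 to 10 counts per library. Summed epithelial markers moved with the groups, from 1545 to 1790 CPM with DMSO to between 1226 and 1324 CPM with dTAGV1. KRT19 at -0.65 and KRT18 at -0.60 were called lower, EPCAM was called higher at 0.28, and KRT8 at -0.38 and CDH1 at 0.02 were not called. The part of the epithelial, COL1A1 and VWF levels in the results was not tested. In these bulk samples, fewer cells of a kind and less RNA per cell cannot be told apart.

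Most pore and transport genes shifted by less than 1.5-fold, a share not counted over all tested genes, and more of them were lower than higher. Of the 53 genes, 51 passed the filter on low counts and were tested. With dTAGV1, 23 were lower and 7 higher at an adjusted p under 0.05 over all tested genes, and 21 were not called. Among all 12618 tested genes 57.9% were called, 28.5% as lower and 29.4% as higher. The share of members called, 58.8%, was thus close to that of genes in general, while 45.1% of the members were lower and 13.7% higher. The median log2 fold change of the members was -0.20, against 0.01 over all tested genes. Groups did not overlap in CPM for 19 members that were lower in every dTAGV1 library and for 7 that were higher, where 25.1% and 25.8% of all tested genes behaved so. One member, NUP43, was called with a decrease of more than 2-fold, which 9.23% of all tested genes showed. None was called with an increase of more than 2-fold, which 7.35% of all tested genes showed.

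**Figure D1:**
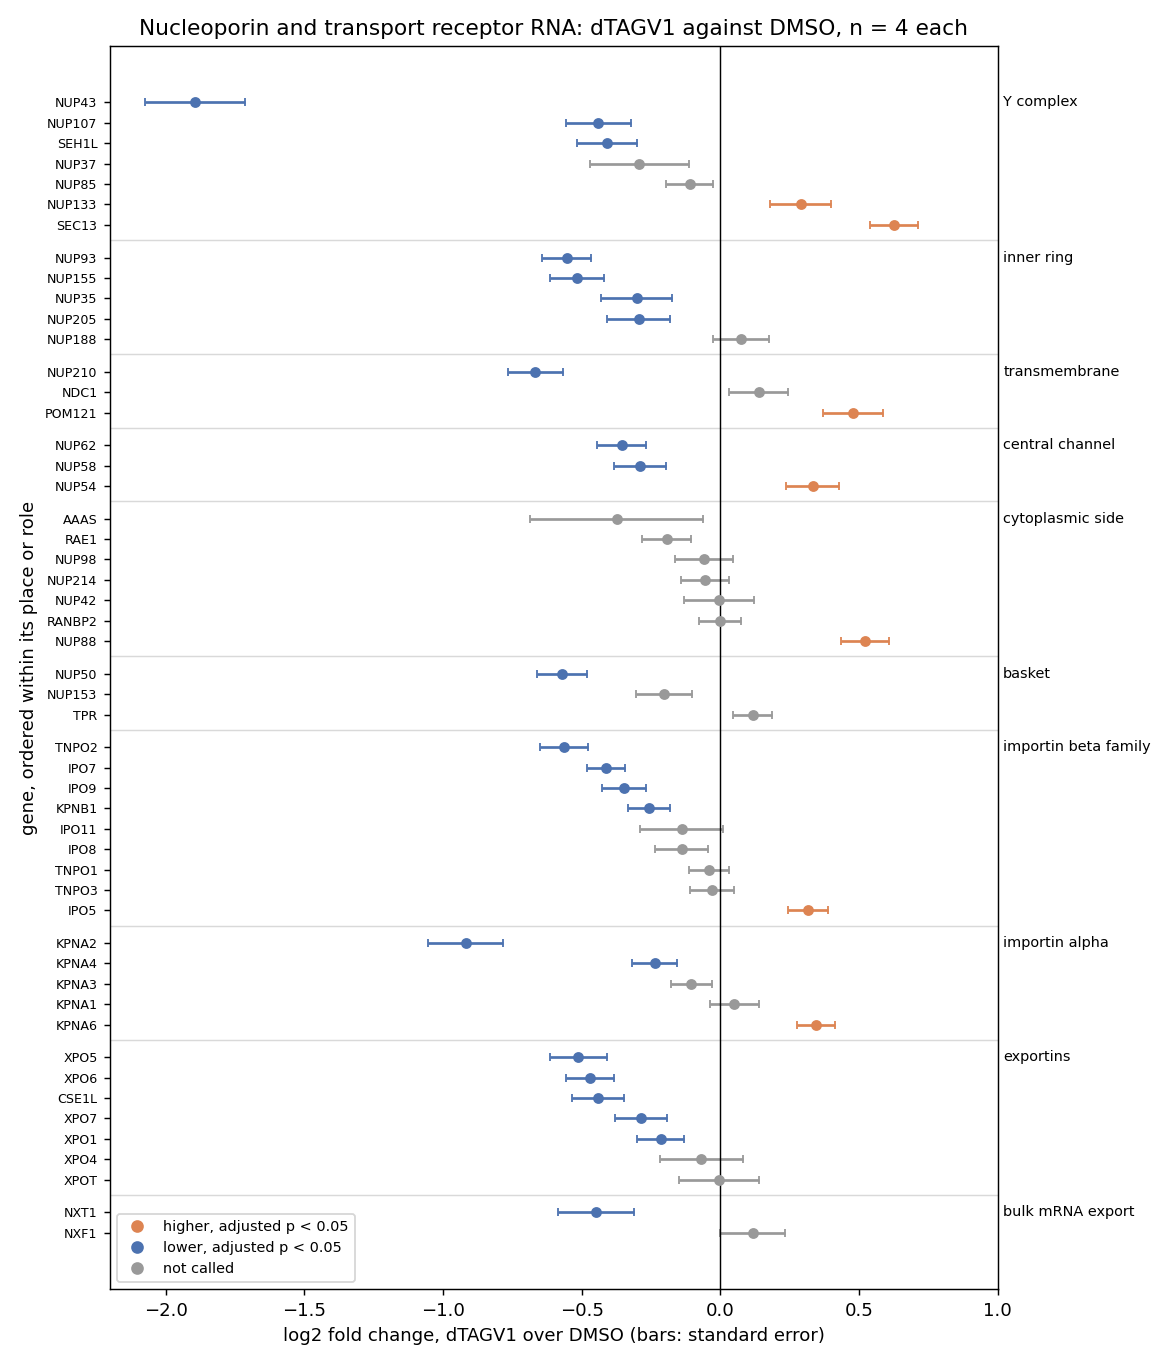
Log2 fold change of each of the 51 tested genes (x axis, dTAGV1 over DMSO, points with standard errors, n = 4 each), grouped on the y axis by place in the pore or by transport role. NUP43 stands at -1.89, KPNA2 at -0.92 and SEC13 at 0.63, while all called inner ring genes and exportins lie below 0.

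CFIm binds UGUA in nascent RNA, so the annotated 3′ ends of the genes that moved most are shown first. Of the 51 tested members, 49 had an annotated 3′ untranslated region of at least 100 bases in GENCODE 29. A single protein-coding transcript per gene was used, chosen by its annotated principal rank and then by length. Its end need not be the outermost annotated end of the gene, and for SEC13, NUP93, NUP58, NUP62 and NUP98, among others, it was not. Other annotated ends were not searched. TGTA, searched on the transcript strand only, occurred in the last 100 bases in 37 of them (75.5%), against 56.5% of 10391 tested protein-coding genes. It was present in 18 of 23 members called lower, 4 of 7 called higher and 15 of 19 not called, given without a test. NUP43 and NUP155 among the 8 largest decreases, and NUP88, POM121 and NUP133 among the increases, had no TGTA in that window, which says only that these letters are absent there. The poly(A) signal AATAAA lay in the last 50 bases of 37 members (75.5%), against 64.2% of protein-coding genes. The ends that the cells used were not determined from counts per gene. Windows of 30 bases around the TGTA nearest to the end of the chosen transcript are given on the transcript strand (GENCODE 29, GRCh38). TGTA is in capitals. The windows cover the genes that hold it among the 8 largest decreases and the increases, and TNPO3. NXF1, KPNB1 and further members also hold it but are not printed. The first 6 genes were lower with dTAGV1, the next 4 were higher, and TNPO3 was not called.
KPNA2, chr17:68046803-68046832, plus strand: tcttgcagcatccTGTAaataaacattcaa
NUP210, chr3:13316274-13316303, minus strand: ctgacaacctggaTGTAaataggagccttt
NUP50, chr22:45187956-45187985, plus strand: cccatcgaggaagTGTAacaatccatgaaa
TNPO2, chr19:12699222-12699251, minus strand: gagattccacttgTGTAgaactttgttgag
NUP93, chr16:56844740-56844769, plus strand: acgccaataaatttctttgattTGTAtttc
XPO5, chr6:43522380-43522409, minus strand: tatagaaacttttTGTAgaaacattaactc
SEC13, chr3:10300988-10301017, minus strand: tgggtcatttttaTGTAcctttgggttcag
KPNA6, chr1:32176509-32176538, plus strand: aggtttcaaacacTGTAatagatataaagc
NUP54, chr4:76114664-76114693, minus strand: aaataaattcttaattTGTAattactttta
IPO5, chr13:98024229-98024258, plus strand: ataactctggagtTGTAgtttgacagaacc
TNPO3, chr7:128954231-128954260, minus strand: ttctgtctggtgtTGTAgccatctcaagaa

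The Y complex, which forms the outer scaffold rings, held both the largest decrease and the largest increase among the members. NUP43 (ENSG00000120253; GRCh38 chromosome 6, 149724315 to 149749665, minus strand) encodes a small subunit of this complex. Its level was 27.6, 27.98, 29.3 and 26.0 CPM in DMSO replicates 1 to 4 and 4.54, 6.65, 8.25 and 9.93 CPM in dTAGV1 replicates 1 to 4. Every dTAGV1 library lay far below the lowest DMSO library. The log2 fold change of NUP43 was -1.89 and a standard error of 0.18 (edgeR, adjusted p = 2.74e-09), or 0.269 of the DMSO level. SEC13 (ENSG00000157020; chromosome 3, 10293131 to 10321178, minus strand), whose product serves both the Y complex and the COPII coat of secretory vesicles, moved the other way. Its CPM were 79.2, 69.9, 69.4 and 69.5 with DMSO and 104, 106, 113 and 121 with dTAGV1. The groups did not overlap, and the log2 fold change was 0.63 and a standard error of 0.09 (edgeR, adjusted p = 9.47e-07).

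Other Y complex genes moved less. NUP107 and SEH1L were lower, with log2 fold changes of -0.44 (edgeR, adjusted p = 0.00223) and -0.41 (edgeR, adjusted p = 0.0023). The NUP107 libraries overlapped between groups, at 56.1 to 76.5 CPM with DMSO and 42.3 to 58.4 CPM with dTAGV1. NUP133 was higher, from 30.1, 37.1, 32.3 and 34.9 CPM to 39.1, 41.4, 40.4 and 43.5 CPM. All 4 dTAGV1 libraries stood above the DMSO libraries, at a log2 fold change of 0.29 (edgeR, adjusted p = 0.028). The call was lost in 5 of 8 fits without 1 library, with values of 0.24 without DMSO replicate 1, 0.27 without DMSO replicate 3, and 0.28, 0.29 and 0.24 without dTAGV1 replicates 2, 3 and 4. Library-size scaling, at 0.22 (edgeR, adjusted p = 0.106), and DESeq2, at 0.28 (adjusted p = 0.0669), did not call it either. NUP37 at -0.29 and NUP85 at -0.11 were not called. NUP37 passed as lower with the replicate block, at -0.30 (edgeR, adjusted p = 0.0415), without DMSO replicate 1, at -0.42 (edgeR, adjusted p = 0.0352), and without dTAGV1 replicate 4, at -0.46 (edgeR, adjusted p = 0.0317). Without dTAGV1 replicate 1 NUP37 stood at -0.15. NUP160, the remaining subunit, had only 1 to 8 counts per library and was not tested. The annotation used for counting is not given, and reads that fit more than 1 gene were kept apart. These counts therefore do not show that NUP160 RNA was scarce.

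In the inner ring, which joins the scaffold to the membrane and the channel, 4 of 5 genes were lower and 0 higher, where 28.5% and 29.4% of all tested genes were. NUP93, the ring's organising subunit, gave 162, 158, 190.2 and 160.0 CPM with DMSO and 134, 113, 109.6 and 99.8 CPM with dTAGV1 (log2 fold change -0.55, standard error 0.09; edgeR, adjusted p = 9.06e-06). NUP155, which binds the membrane, gave 58.8, 62.0, 66.2 and 56.9 CPM and then 43.1, 41.4, 41.2 and 44.5 CPM (log2 fold change -0.52, standard error 0.10; edgeR, adjusted p = 6.97e-05). Neither gene overlapped between the groups. NUP35 at -0.30 (edgeR, adjusted p = 0.0465) and NUP205 at -0.29 (edgeR, adjusted p = 0.0283) were also called, near the threshold. Leaving out any of 5 libraries ended the NUP35 call: it stood at -0.31, -0.24 and -0.33 without DMSO replicates 1, 3 and 4, and at -0.24 and -0.28 without dTAGV1 replicates 1 and 4. Leaving out any of 4 ended that of NUP205, at -0.30 and -0.28 without DMSO replicates 2 and 3 and -0.27 and -0.29 without dTAGV1 replicates 1 and 3. DESeq2 called neither, with an adjusted p = 0.0723 for NUP35 and 0.0535 for NUP205. NUP205 gave 37.2, 36.7, 37.6 and 34.6 CPM and then 28.1, 30.8, 28.9 and 31.2 CPM, without overlap. NUP188, its paralog, gave 45.1, 40.5, 46.4 and 41.05 CPM and then 47.05, 47.1, 44.8 and 43.3 CPM. Those libraries overlapped, and NUP188 was not called at 0.07, with a 95% interval of -0.13 to 0.27. Summed over the 5 genes, CPM averaged 342 ± 25.2 in the DMSO group and 259.5 ± 13.2 in the dTAGV1 group (SD, n = 4 each), given without a test.

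The 3 transmembrane nucleoporins went in different directions. NUP210 fell from 66.4, 67.3, 60.03 and 59.8 CPM to 38.8, 37.2, 40.4 and 43.0 CPM. Its groups were well apart, at a log2 fold change of -0.67 and a standard error of 0.10 (edgeR, adjusted p = 3.05e-06). POM121 rose from 34.4, 31.6, 34.2 and 41.3 CPM to 49.9, 48.3, 48.9 and 50.1 CPM, a log2 fold change of 0.48 and a standard error of 0.11 (edgeR, adjusted p = 0.00049). POM121 has a near-identical copy, POM121C, which rose by 0.52, and reads could be split between the copies, so the value of either gene is uncertain. Counted irrespective of strand, POM121 was not called at 0.36 (edgeR, adjusted p = 0.0592). NDC1, the membrane anchor of the pore, was not called at 0.14.

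All 3 genes of the central channel, whose products carry the phenylalanine-glycine repeats that gate transport, were called, where 57.9% of all tested genes were. NUP62 was lower at -0.36 (edgeR, adjusted p = 0.00104) and NUP58 at -0.29 (edgeR, adjusted p = 0.0103), whereas NUP54 was higher at 0.33 (edgeR, adjusted p = 0.00398). NUP54 gave 72.7, 78.4, 69.9 and 63.3 CPM with DMSO and 85.9, 101, 79.5 and 91.3 CPM with dTAGV1. Its groups came close but did not overlap, while those of NUP58 did.

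On the cytoplasmic side, where cargo is released and mRNA is handed over, NUP88 was called and the other 6 of 7 genes were not, where 57.9% of all tested genes were called. It gave 73.0, 87.1, 72.04 and 70.7 CPM with DMSO and 108, 109.7, 103 and 114 CPM with dTAGV1. The groups were separate, and the log2 fold change was 0.52 and a standard error of 0.09 (edgeR, adjusted p = 1.45e-05). NUP214, its partner on the pore, was at -0.05 with a 95% interval of -0.23 to 0.12. RANBP2, the SUMO ligase of the filaments, was at -0.00 with an interval of -0.15 to 0.15. RANBP2 has near-identical gene copies, so its counts are uncertain. RAE1 was lower in every dTAGV1 library than in any DMSO library, at -0.19, but did not pass the test (edgeR, adjusted p = 0.0668). RAE1 did pass as lower in 5 alternatives: at -0.27 with library-size scaling, -0.21 with a mean of at least 100 counts, -0.22 with counts irrespective of strand, -0.23 without DMSO replicate 1 and -0.24 without dTAGV1 replicate 4 (edgeR, adjusted p = 0.0131 to 0.0438). NUP98 and NUP42 were not called, and AAAS was measured at only 3.57 CPM with DMSO and 2.74 CPM with dTAGV1, which gave a standard error of 0.31. NUP42 passed as lower when counts irrespective of strand were used, at -0.33 (edgeR, adjusted p = 0.04), and a gene on the other strand overlaps it.

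NUP50 was the basket gene that fell. NUP50, a basket protein that also helps importin alpha release its cargo, went from 117, 146, 130.5 and 124 CPM to 80.2, 81.9, 86.0 and 99.8 CPM. No library of one group reached the other, and the log2 fold change was -0.57 and a standard error of 0.09 (edgeR, adjusted p = 6.92e-06). NUP153 at -0.20 (edgeR, adjusted p = 0.0921) and TPR at 0.12 (edgeR, adjusted p = 0.162) were not called. NUP153 passed as lower at -0.28 with library-size scaling (edgeR, adjusted p = 0.0219) and at -0.27 without dTAGV1 replicate 2 (edgeR, adjusted p = 0.036).

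**Figure D2:**
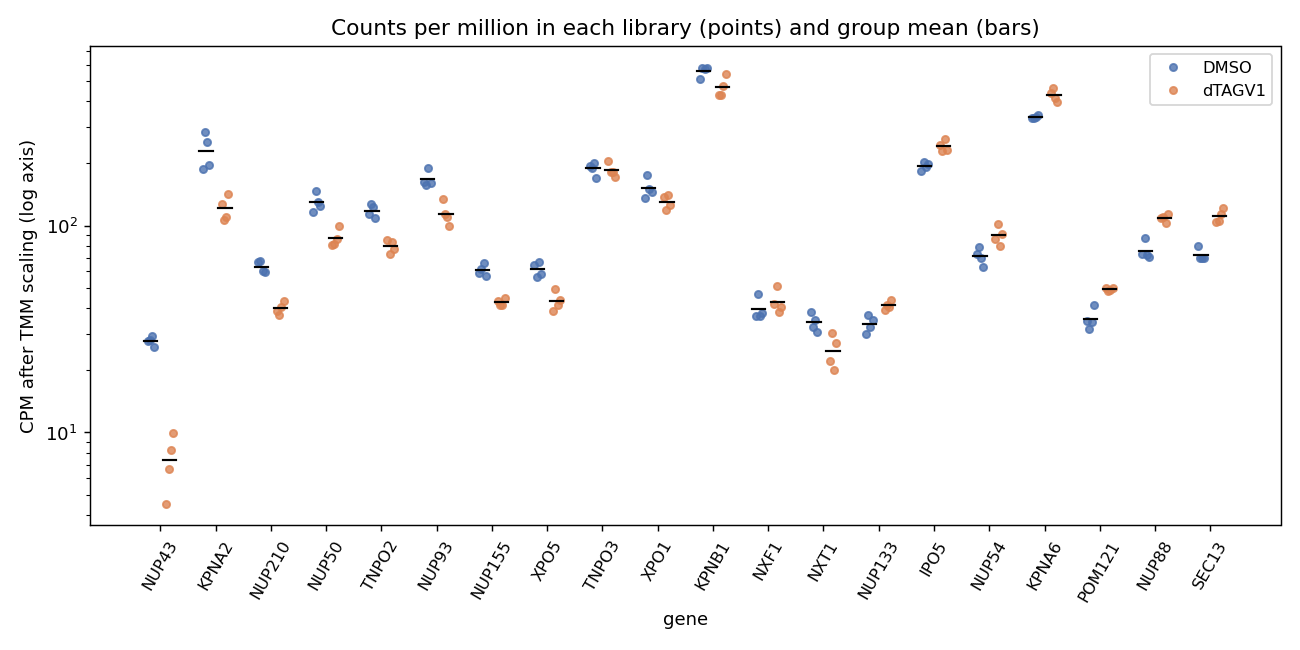
CPM after TMM scaling (y axis, log scale) of 20 genes (x axis) in each library, with points for libraries and bars for group means. The 4 dTAGV1 libraries of NUP43 sit between 4.54 and 9.93 CPM, below all DMSO libraries at 26.0 to 29.3 CPM, while TNPO3 and XPO1 overlap between the groups.

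Of the importin beta family, which bind cargo and the pore directly, 4 of 9 tested genes were lower and 1 was higher, where 28.5% and 29.4% of all tested genes were. The share called, 5 of 9, was close to the 57.9% of all tested genes. KPNB1, importin beta itself, gave 509, 579, 573 and 576 CPM with DMSO and 428, 428, 473 and 542 CPM with dTAGV1. These ranges overlapped through dTAGV1 replicate 4 and DMSO replicate 1, and the log2 fold change was -0.26 and a standard error of 0.08 (edgeR, adjusted p = 0.00608). TNPO2, a transportin that imports RNA-binding proteins, fell from 113, 127, 123 and 108 CPM to 85.6, 72.5, 83.7 and 77.3 CPM. Its groups did not overlap, at -0.56 and a standard error of 0.09 (edgeR, adjusted p = 4.09e-06). IPO7 at -0.41 and IPO9 at -0.35, which import ribosomal proteins and histones among other cargo, were also lower. IPO5 rose from 183, 203, 192 and 198 CPM to 245, 229, 261 and 232 CPM, a log2 fold change of 0.32 and a standard error of 0.07 (edgeR, adjusted p = 0.000525).

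TNPO3, the importer of CPSF6 and of serine-arginine-rich splicing factors, gave 195, 190.0, 201 and 169 CPM with DMSO and 206, 182, 181 and 171 CPM with dTAGV1. The libraries of both groups were interleaved. Its log2 fold change was -0.03 with a 95% interval of -0.18 to 0.12 (edgeR, adjusted p = 0.766), beside -0.63 for its cargo CPSF6. TNPO1, the closest relative of TNPO2, gave 261, 260.0, 254 and 250.2 CPM and then 248, 277, 242 and 230.1 CPM, with overlap. TNPO1 at -0.04, IPO8 at -0.14 and IPO11 at -0.14 were not called. IPO4 had 0 counts in all 8 libraries, which allows up to 0.196 CPM with DMSO and 0.201 CPM with dTAGV1 (3 counts over each group, counting error only). It overlaps AL136295.4 on the same strand, and the files hold reads that fit more than 1 gene in a class of their own, so the 0 does not show that IPO4 RNA was absent.

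The 5 importin alpha genes, which encode adaptors between KPNB1 and cargo with a classical nuclear localization signal, ranged from -0.92 to 0.34. KPNA2 (ENSG00000182481; chromosome 17, 68035519 to 68046842, plus strand) had the second largest decrease among the members. It gave 189, 284, 252 and 195 CPM with DMSO and 127, 106, 110.5 and 142 CPM with dTAGV1. The highest dTAGV1 library remained below the lowest DMSO library, although the DMSO libraries varied more than those of most members. The log2 fold change was -0.92 and a standard error of 0.14 (edgeR, adjusted p = 7.61e-05). KPNA6 was higher in each dTAGV1 library, from 332, 332, 333 and 344 CPM to 436, 462, 411 and 393 CPM (log2 fold change 0.34, standard error 0.07; edgeR, adjusted p = 0.000134). KPNA4 was lower at -0.24 (edgeR, adjusted p = 0.0152), but without dTAGV1 replicate 4 it stood at -0.17 and was not called (edgeR, adjusted p = 0.0526). KPNA1 gave 72.1, 74.04, 76.3 and 74.4 CPM and then 84.5, 78.8, 76.6 and 68.3 CPM, with overlap, and was not called at 0.05. KPNA3 was not called either, at -0.10, but passed at -0.18 with library-size scaling (edgeR, adjusted p = 0.0418).

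Among the 7 exportins, 5 were lower and 0 higher, against 28.5% and 29.4% of all tested genes. XPO5, which exports microRNA precursors, fell from 64.8, 56.7, 67.0 and 58.1 CPM to 38.5, 49.5, 41.2 and 43.5 CPM (log2 fold change -0.51, standard error 0.10; edgeR, adjusted p = 0.000169). XPO6, the exporter of actin, was at -0.47 and XPO7 at -0.29, and neither overlapped between groups. CSE1L, which returns importin alpha to the cytoplasm, gave 82.3, 105, 88.6 and 92.2 CPM with DMSO and 66.3, 70.7, 63.6 and 71.0 CPM with dTAGV1. That was a log2 fold change of -0.44 (edgeR, adjusted p = 0.000221), with no overlap. XPO1, the exporter of proteins with leucine-rich signals, gave 136, 175, 150.5 and 145 CPM and then 138, 119, 139.9 and 126 CPM. Its groups overlapped, and the call at -0.22 (edgeR, adjusted p = 0.0324) was lost at -0.14 without DMSO replicate 2, at -0.22 without DMSO replicate 3 and at -0.19 without dTAGV1 replicate 2. XPO4 and XPOT, the tRNA exporter, were at -0.07 and -0.00 and were not called. The summed level of the 7 exportins was 509.6 to 567 CPM in the DMSO libraries and 418 to 434 CPM in the dTAGV1 libraries, given without a test.

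The subunits of the bulk mRNA exporter differed. NXT1, the small subunit, gave 38.3, 32.3, 34.95 and 30.7 CPM with DMSO and 22.1, 30.2, 20.0 and 27.2 CPM with dTAGV1, a log2 fold change of -0.45 and a standard error of 0.14 (edgeR, adjusted p = 0.00683). Its groups were separated by a narrow gap. NXF1, the large subunit, gave 36.3, 46.8, 36.6 and 37.8 CPM and then 41.7, 51.1, 38.3 and 40.4 CPM. Those libraries overlapped and NXF1 was not called at 0.12 (edgeR, adjusted p = 0.413).

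Whether related genes moved differently was tested on the ratio of their counts within each library, in which library scaling cancels. Of 8 pairs, 5 differed between the groups without overlap, each at an exact 2-sided permutation p = 0.0286, the smallest that 4 libraries against 4 can give, and a Benjamini-Hochberg adjusted p = 0.0457 over the 8. Ratios of unrelated genes were not examined, and 50.9% of all tested genes taken singly did not overlap between the groups. The count of pairs therefore does not show that related genes part more often than others. TNPO1 rose relative to TNPO2: the log2 ratio was 1.203, 1.04, 1.04 and 1.21 with DMSO and 1.53, 1.93, 1.53 and 1.57 with dTAGV1, a difference of 0.52. NUP188 rose relative to NUP205 by 0.37, from 0.24 ± 0.07 to 0.61 ± 0.11 (SD, n = 4 each). NXF1 rose relative to NXT1 by 0.58, from 0.21 ± 0.27 to 0.79 ± 0.17 (SD, n = 4 each). The log2 ratio of KPNA2 to its exporter CSE1L changed by -0.47, from 1.30 ± 0.20 to 0.83 ± 0.19 (SD, n = 4 each), so KPNA2 fell more than CSE1L. That of KPNA1 to KPNA6 changed by -0.29, from -2.17 ± 0.04 to -2.47 ± 0.09 (SD, n = 4 each). After adjustment 0 of the 8 pairs passed without DMSO replicate 1 or without any 1 of the 4 dTAGV1 libraries, while the unadjusted exact permutation p of TNPO1/TNPO2, KPNA1/KPNA6 and NUP188/NUP205 remained 0.0286 without any 1 of the 8.

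The other pairs did not pass. KPNA3 against KPNA4 differed by 0.13 (exact permutation p = 0.429, adjusted p = 0.429), with dTAGV1 libraries spread from -0.28 to 0.28. IPO7 against IPO8 differed by -0.27 (exact permutation p = 0.0857, adjusted p = 0.114), with a single DMSO library, replicate 3, inside the dTAGV1 range. Without that library the ratio IPO7/IPO8 passed at -0.34 (exact permutation p = 0.0286, adjusted p = 0.0381). The pair of IPO4 and IPO5 holds no information, because IPO4 had no counts. With counts irrespective of strand KPNA1 against KPNA6 was at -0.11 (exact permutation p = 0.286), the ratio TNPO1/TNPO2 and those of NUP188, NXF1 and KPNA2 to their partners then had an adjusted p = 0.0571 each, and the opposite-strand counts of KPNA1 themselves rose by 0.63. Of 6 members with enough opposite-strand counts to test, 3 differed, where 48.4% of all genes tested this way did.

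**Figure D3:**
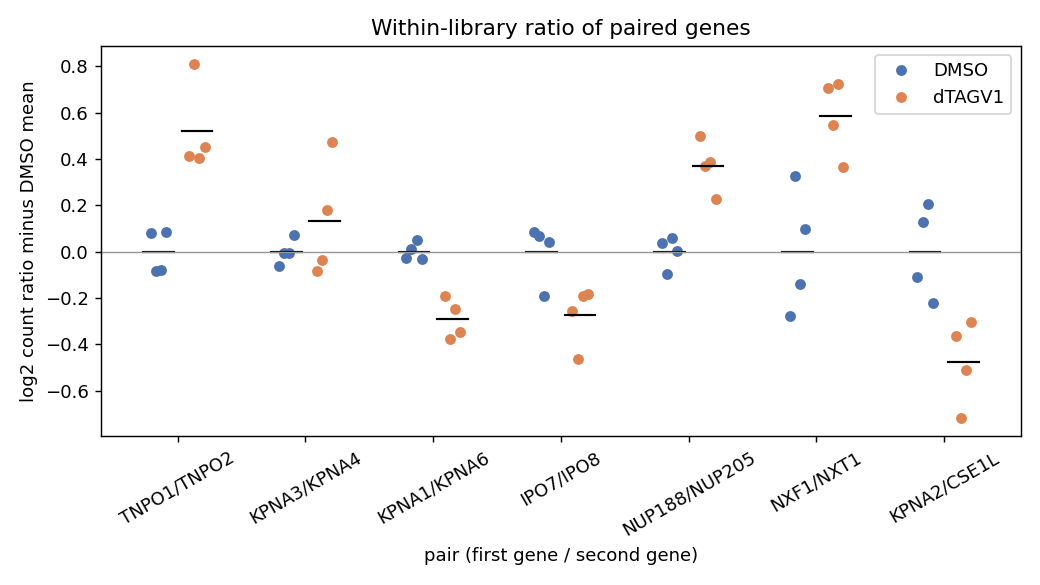
Log2 ratio of counts of 2 genes in the same library minus its DMSO mean (y axis) for 7 pairs (x axis), with points for libraries and bars for group means. TNPO1/TNPO2, NUP188/NUP205 and NXF1/NXT1 lie higher in all dTAGV1 libraries, KPNA1/KPNA6 and KPNA2/CSE1L lie lower, and KPNA3/KPNA4 and IPO7/IPO8 overlap.

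Other genes of the same machinery were read from lists chosen by role. Of 22 genes of the Ran cycle and further transport factors, 19 were tested, of which 10 were lower and 1 higher, with a median log2 fold change of -0.29. The share called, 11 of 19, equalled the 57.9% of all tested genes, of which 28.5% were lower. RAN, the GTPase that gives transport its direction, fell from 406, 430.0, 434 and 414 CPM to 275, 287, 312 and 357 CPM (log2 fold change -0.45; edgeR, adjusted p = 1.86e-05). RANGAP1, which triggers GTP hydrolysis by Ran, was at -1.08 (edgeR, adjusted p = 8.61e-08) and RANBP1, its cofactor, at -0.84 (edgeR, adjusted p = 1.72e-09). POM121C was the gene that rose in this list.

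Of 22 mRNA export adaptors 20 were tested, and 3 were lower and 3 higher, while 57.9% of all tested genes were called. DDX39B, not tested, had 0 counts in every library. It overlaps ATP6V1G2-DDX39B on the same strand, so the 0 does not show that its RNA was absent. NXT2, a relative of NXT1, fell from 10.9 ± 0.961 to 3.96 ± 1.10 CPM (SD, n = 4 each; log2 fold change -1.46; edgeR, adjusted p = 9.61e-06), and PHAX, the adaptor for small nuclear RNA export, was at -0.45. NCBP2, the cap-binding subunit, rose from 145 ± 15.3 to 257 ± 26.3 CPM (SD, n = 4 each; log2 fold change 0.82; edgeR, adjusted p = 1.01e-08), and CHTOP was at 0.52. The number called in this list was 6, but 11 without DMSO replicate 1 and 10 without dTAGV1 replicate 1.

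Nuclear envelope and lamina genes, the surroundings of the pore, showed the widest changes of these lists. Of 12 tested, 9 were lower and 1 higher, with a median of -0.50, where 28.5% and 29.4% of all tested genes were lower and higher. LMNB1, lamin B1, fell from 116 ± 18.6 to 26.8 ± 3.47 CPM (SD, n = 4 each; log2 fold change -2.10; edgeR, adjusted p = 8.65e-13). TMPO, which encodes the lamina-associated polypeptide LAP2, fell from 145 ± 12.3 to 46.4 ± 7.50 CPM (SD, n = 4 each; log2 fold change -1.64; edgeR, adjusted p = 1.5e-12). SYNE1, a giant nesprin of the outer nuclear membrane, rose from 11.7 ± 1.42 to 44.4 ± 1.93 CPM (SD, n = 4 each; log2 fold change 1.91; edgeR, adjusted p = 1.02e-11).

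**Figure D4:**
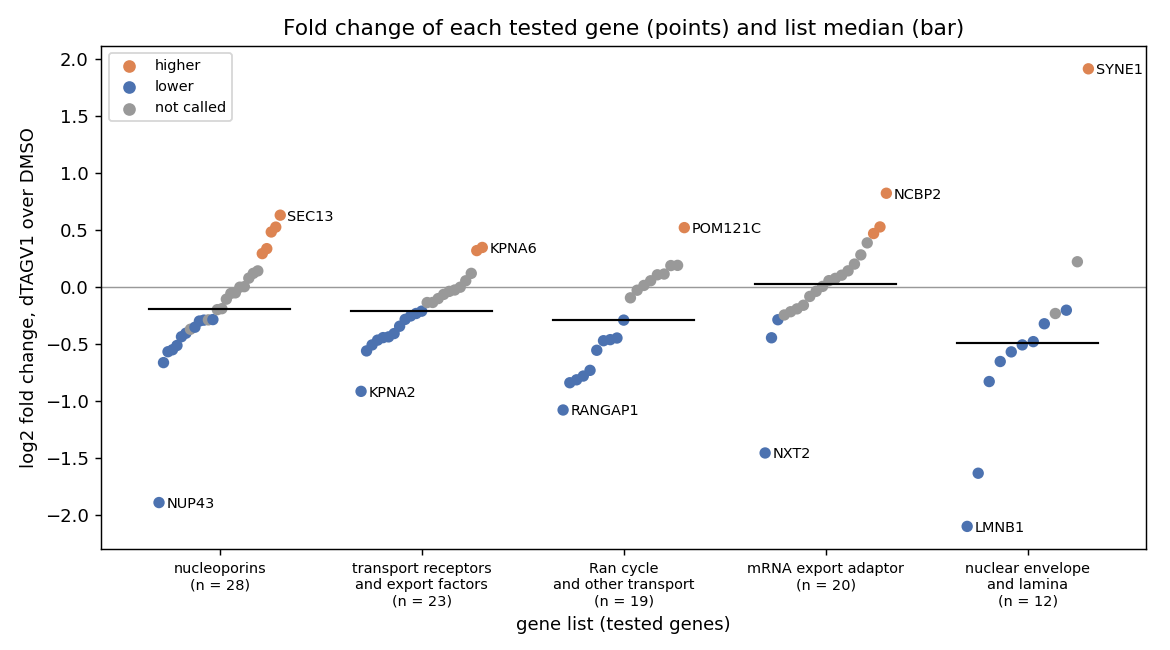
Log2 fold change of every tested gene (y axis, points) in 5 gene lists (x axis), with list medians as bars. Medians of the nucleoporins, the transport receptors and the Ran cycle list lie at -0.20, -0.22 and -0.29, that of the mRNA export adaptors at 0.03 and that of the envelope and lamina genes at -0.50.

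Fold changes of the members did not follow the length of the gene or its 3′ untranslated region closely. Across the 51 tested members, Spearman's rho of the log2 fold change with the genomic span was 0.187, against 0.146 across 10645 tested protein-coding genes. With the length of the annotated 3′ untranslated region of the chosen transcript, rho was 0.0111 over 49 members. Over 10391 tested protein-coding genes that rho was 0.0506. These are descriptions across genes that share the same libraries.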

How the data were processed

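Column values are raw counts of reads per gene, deposited by the authors as whole numbers for each library, and the sense-strand column was used. The library kit was Lexogen QuantSeq FWD V2, per the labels' protocols. FastQC, fastp, STAR, HTSeq, DESeq2 and GRCh38 are named in the submitters' processing notes, without versions. Levels were not divided by gene length, since this kit gives reads near 3′ ends. Use of molecular identifiers is not given in the sources used here, and the limits given for 0 counts cover counting error only. Reads given to no gene, 56.7% to 62.8% of each library, stayed out of library sizes.

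Genes were filtered with filterByExpr, scaled by TMM and tested with edgeR 4.0.16 (R 4.3.3, robust quasi-likelihood F test), with Benjamini-Hochberg adjustment over all 12618 tested genes and a threshold of 0.05. CPM are per 1000000 counts of tested genes after TMM. TMM factors were 1.01 to 1.04 in the DMSO libraries and 0.96 to 0.99 in the dTAGV1 libraries. A shift shared by most genes would not show on this scale, so lower and higher are relative. Standard errors are the absolute log2 fold change divided by the square root of F. Intervals labelled 95% span 1.96 standard errors on each side, so they carry the spread between libraries. The F test has limited degrees of freedom, for which 1.96 is too small, so these intervals are somewhat too narrow. That of NUP153, -0.40 to -0.0025, left out 0 at an unadjusted p = 0.0581 (edgeR). On simulated counts of 12618 genes with 200 changed, edgeR recovered 58.2%, 93.8% and 100% of changes of 0.5, 1 and 2 on the log2 scale, with 11 false calls. In the data 57.9% of genes were called, far more than were changed in the simulation. These rates therefore check the procedure and do not give the recovery in the data. Symbols matched 61481 identifiers, including all 53 members. Coordinates are from GENCODE 29, which may differ from the authors' annotation.

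Members and lists were chosen with earlier results of these data known. Values in every library were given for the 8 largest decreases and the increases (7 passed), TNPO3, NXF1, NXT1, XPO1, KPNB1 and members of pairs that differed, in part as means. From other lists the 2 largest changes in each direction were named, and RAN. Others were named after their values were seen. No label says that replicates came from separate cultures, so p-values measure the spread between these libraries, which may be technical. Within groups the chi-square statistic over its degrees of freedom was 1.89 to 5.64, so no pair was a repeat within sampling noise. Alternatives were RLE and library-size scaling, DESeq2 1.42.0, limma-voom (limma 3.58.1), other filters, counts irrespective of strand, a replicate block, non-robust dispersions, a 1.2-fold threshold and leaving out each library.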

Additional observations from a re-analysis of the deposited data

Results flagged for a closer look

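A single library stood apart from the other 3 of its group for 8 of the 102 combinations of gene and group examined by Dixon's gap-to-range ratio at its 95% critical value. Chance gives about 1 in 20. All 8 were DMSO libraries. SEC13 was highest in DMSO replicate 1 at 79.2 CPM, with the others at 69.4 to 69.9 CPM. KPNB1 was lowest in the same replicate, at 509 CPM beside 573 to 579 CPM. DMSO replicate 2 was highest for NUP62 at 120.6 CPM, NUP88 at 87.1 CPM and NXF1 at 46.8 CPM. DMSO replicate 3 was highest for NUP93 at 190.2 CPM and IPO8 at 66.7 CPM, and DMSO replicate 4 for KPNA6 at 344 CPM. The calls of NUP62, NUP88, NUP93, SEC13, KPNB1 and KPNA6 held without these libraries, and NXF1 and IPO8 were not called with or without them.

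Counts on the strand opposite the gene were outside the main comparison, which used sense-strand counts. Of 6 members with enough of them, 3 differed between the groups, where 48.4% of 3324 genes tested this way did (edgeR, Benjamini-Hochberg adjusted p under 0.05). Opposite-strand counts of SEC13 were 9, 12, 17 and 18 with DMSO and 31, 29, 39 and 38 with dTAGV1, a log2 fold change of 1.26 (edgeR, adjusted p = 0.000169). Those of KPNA1 were 36, 48, 22 and 24 and then 43, 56, 59 and 45, a log2 fold change of 0.63 (edgeR, adjusted p = 0.021) with overlapping groups. Those of NUP88 were lower, at -0.32 (edgeR, adjusted p = 0.0393), while its sense counts were higher. Annotated genes on the other strand overlap all 3.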

How the results depend on the processing

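Of 30 members called, 13 kept their call in every alternative in which they were tested (NUP43, 1 of them, was not tested with a mean of at least 100 counts) and 25 in all 8 fits without 1 library, and 0 of the 30 changed direction. With a fold change of at least 1.2 required, 14 members passed, 3 higher and 11 lower. DESeq2 called 27 members and library-size scaling 32. With a mean of at least 100 counts, all genes changed numbered 4120, since fewer genes were tested. Members gained calls in 12 cases, those of NUP37, NUP42, NUP153, RAE1 and KPNA3, all lower. Library-size scaling called 10 mRNA export adaptors in place of 6, and fits without 1 library called 6 to 11.

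Pairs that differed numbered 0 of 8 with counts irrespective of strand, and 0 to 6 in tests without 1 library. In the tests that gave 0, fewer than 5 pairs reached the smallest p, which the adjustment over 8 then raised above 0.05. With the replicate block the number was 0, because 4 sign changes cannot give an exact permutation p below 0.125. Members with a change on the opposite strand numbered 1 to 3 without 1 library. The replicate block called 31 members, 30 of them the same genes as without it. Deviations of same-numbered libraries correlated at 0.131, -0.0176, 0.0232 and 0.0340, and not every library correlated best with its own number, so the numbers were not taken to pair libraries.

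Signs changed only for members not called. NUP188 was at -0.00050 and KPNA1 at -0.024 with library-size scaling, and RANBP2 at 0.000058 with limma-voom. Without 1 library RANBP2 ranged from -0.039 to 0.031, NUP42 from -0.107 to 0.062, NUP98 from -0.128 to 0.010, XPO4 from -0.163 to 0.054, XPOT from -0.181 to 0.116 and KPNA1 from -0.0043 to 0.092.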
